A study of Mus musculus with 2 samples.

Results

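The nuclear-encoded subunits of the mitochondrial respiratory chain were described in immune cells sorted from mouse melanomas. They were taken by symbol, as every gene starting with Ndufa, Ndufb, Ndufc, Ndufs, Ndufv, Sdh, Uqcr, Cox4, Cox5, Cox6, Cox7, Cox8 or Atp5, without pseudogenes and unnamed RIKEN or Gm entries. This gave 97 of the 32285 genes in the files. Of these, 84 encode subunits: 36 of complex I, 4 of complex II, 8 of complex III, 19 of complex IV and 17 of complex V. Another 12 are assembly factors (8 Ndufaf and 4 Sdhaf genes), and 1, Cox7a2l, is a factor associated with complex IV. The measured values played no part in this choice.

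The study asked how the immune cells of FDPS-deficient tumours differ from those of control tumours. Mice were injected under the skin with B16-F10 cells, a line derived from a mouse melanoma, and the tumours were taken on day 14. The injected cells either lacked FDPS, the mevalonate pathway enzyme that makes farnesyl diphosphate, or were controls labelled WT. In both groups 3 tumours were digested with collagenase and DNase, and living cells carrying CD45, a surface protein of white blood cells, were sorted into 1 droplet single-cell library per group. The deletion is thus in the injected tumour cells and not in the cells measured here. The strain and age of the mice, and whether the knockout line is 1 clone, are not stated in the labels. With 1 library per group there is no replicate, no test was possible, and each difference is between these 2 libraries. Intervals (95%, exact) cover counting error only.

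The knockout library held 127186298 unique molecular identifiers (UMIs, counts of captured RNA molecules) in 9130 barcodes, and the control library 208936136 in 10882. After quality filters 8697 and 9415 barcodes were left, and 19 barcode sequences occurred in both. Ptprc, the gene of CD45, had a UMI in 97.4% and 88.8% of them. The labels give the cell type as melanoma, although CD45-positive cells were sorted. Cells with melanoma markers and no Ptprc UMI numbered 20 and 741, with Fdps at 73.6 CPM (51.5 to 101.8) and 392.3 CPM (382 to 403). Gates on marker genes put 68.3% and 67.8% of the kept cells into 12 classes. The class names below stand for cells past these gates (CD8 T-like, macrophage-like and so on), and the other cells were left out.

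The respiratory chain passes electrons from nutrients to oxygen and pumps protons across the inner mitochondrial membrane as it does so. Complex I takes electrons from NADH and complex II from succinate, complex III passes them on to cytochrome c, and complex IV hands them to oxygen. Complex V, the ATP synthase, uses the proton gradient to make ATP. Most subunits are encoded in the nucleus, and a few core subunits of complexes I, III, IV and V in the mitochondrial genome. Some nuclear subunits of complex IV exist as isoforms from separate genes that are used in particular tissues. T cells and macrophages are known to shift between respiration and glycolysis as they are activated.

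The bases upstream of 5 subunit genes are printed as examples from both ends of the comparison that follows. Atp5d, Sdha, Ndufs4 and Ndufb3, which also stood at these ends, are not printed because their windows hold annotated exon bases, and neither is Ndufb9. Atp5b, Cox5a and Atp5g1 were lower past 1.5-fold in the knockout library in at least 6 of 8 cell classes, and Atp5k and Ndufa3 in none. Each line gives 200 bases on the gene's own strand, ending 50 bases before the start that RefSeq lists (GRCm38.p6).
Atp5b: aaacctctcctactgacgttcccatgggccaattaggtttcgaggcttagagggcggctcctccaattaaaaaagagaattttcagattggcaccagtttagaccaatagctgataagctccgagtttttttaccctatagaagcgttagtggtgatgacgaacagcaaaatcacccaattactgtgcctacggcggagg
Cox5a: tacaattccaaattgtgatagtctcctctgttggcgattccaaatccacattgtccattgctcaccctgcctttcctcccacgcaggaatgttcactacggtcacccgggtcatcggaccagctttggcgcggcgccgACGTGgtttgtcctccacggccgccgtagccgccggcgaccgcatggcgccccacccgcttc
Atp5g1: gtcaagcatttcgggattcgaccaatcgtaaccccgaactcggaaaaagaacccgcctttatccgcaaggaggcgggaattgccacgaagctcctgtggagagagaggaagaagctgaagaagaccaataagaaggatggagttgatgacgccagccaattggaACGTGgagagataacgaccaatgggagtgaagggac
Atp5k: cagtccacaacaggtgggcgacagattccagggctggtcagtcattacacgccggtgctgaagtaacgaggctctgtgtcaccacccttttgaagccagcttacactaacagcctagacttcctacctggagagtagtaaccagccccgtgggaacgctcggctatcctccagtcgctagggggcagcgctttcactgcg
Ndufa3: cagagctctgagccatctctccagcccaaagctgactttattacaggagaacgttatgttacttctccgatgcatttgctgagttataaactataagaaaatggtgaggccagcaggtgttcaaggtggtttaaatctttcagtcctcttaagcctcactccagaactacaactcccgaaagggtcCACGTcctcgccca
They lie at chr10:128083057-128083256, plus strand (Atp5b), chr9:57520982-57521181, plus strand (Cox5a), chr11:96075682-96075881, minus strand (Atp5g1), chr5:108434450-108434649, minus strand (Atp5k) and chr7:3617123-3617322, plus strand (Ndufa3). Capitals mark matches, on either strand, to 4 motifs known from promoters of such genes: GCGCATGC (core of the NRF1 site), CCGGAAG (ETS factors such as GABP), AAGGTCA (nuclear receptors such as ERR alpha) and ACGTG (core of the hypoxia response element). No match in the printed bases overlapped one of another motif. There ACGTG matched once each in Cox5a and Atp5g1, on the other strand in Ndufa3, and no other motif matched. Promoter windows were found for 79 of the 97 genes, 67 of them subunits. In the 250 bases upstream of the start, GCGCATGC matched in 11.9% of the 67 subunit windows and 2.32% of the 27025 windows of all genes. CCGGAAG matched in 16.4% and 7.05%, AAGGTCA in 7.46% and 4.05%, and ACGTG in 19.4% and 16.6%. A match is a description of the sequence and not of binding.

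The subunits made up a smaller share of the RNA in the knockout library in each of the 12 classes. In CD8 T cells they held 1.74% (1.73 to 1.74) of all UMIs in the knockout library, against 2.26% (2.26 to 2.27) in the control library. In NK cells the shares were 1.29% (1.28 to 1.29) and 1.68% (1.67 to 1.703). In monocytes and macrophages together they were 1.34% (1.33 to 1.35) and 1.88% (1.88 to 1.89), and in conventional dendritic cells 1.401% (1.395 to 1.41) and 1.76% (1.75 to 1.77). The intervals of the 2 libraries did not overlap in these 4 groups of cells or in any of the 12 classes. They rest on pooled UMIs and do not cover the spread between cells or tumours. Neutrophils had the lowest shares in both libraries, 0.59% and 0.909%, from 72 and 77 cells. CD4 T cells came closest to each other, at 1.46% and 1.57%, with 46 cells in the control library. Regulatory T cells held 1.37% and 1.99%, B cells 0.987% and 1.53%, and plasmacytoid dendritic cells 1.41% and 1.92%. A CD8 T cell carried 314 subunit UMIs on average in knockout-tumour cells and 633 in control cells. An NK cell carried 147 and 158. Less RNA per gene and a deeper library cannot be told apart in such totals.

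**Figure D1:**
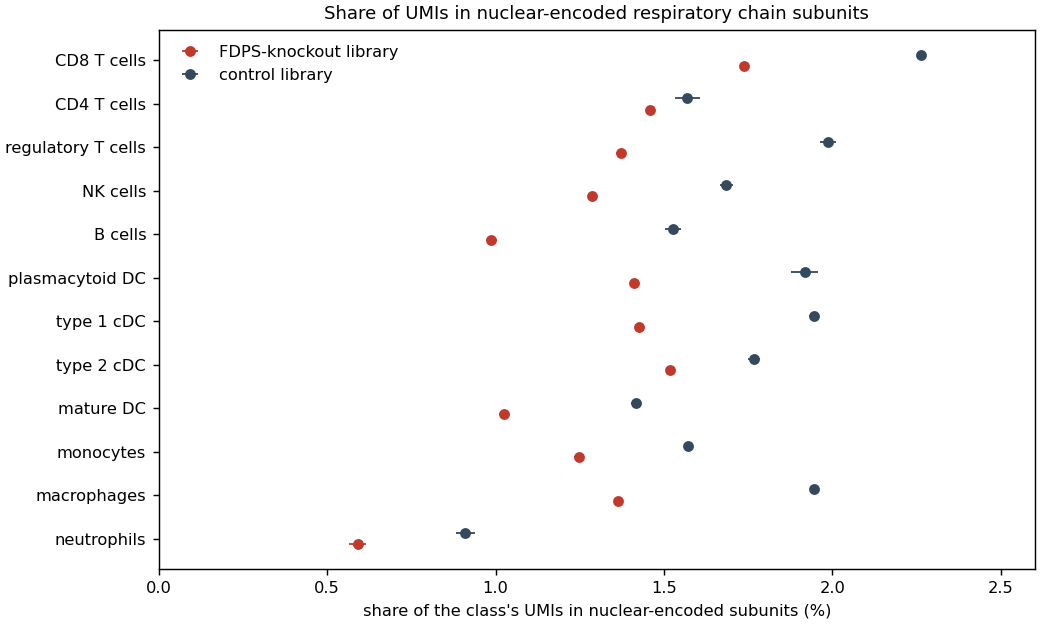
Share of each class's UMIs that fell in the 84 nuclear-encoded subunit genes (percent, horizontal axis) in 12 marker-gated cell classes; points are the 2 libraries and bars exact 95% binomial intervals, which are often smaller than the point. The control library lies to the right in each class, by the most in regulatory T cells (1.37% against 1.99%) and macrophages (1.36% against 1.94%) and by the least in CD4 T cells (1.46% against 1.57%).

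Other properties of the cells moved with these shares. Median UMIs per CD8 T cell were 13516 in knockout-tumour cells and 23111 in control cells, and per macrophage 11051 and 19171. In NK cells the order was the other way, with 10483 and 7885. No UMI of 8 cell division genes was found in 27.8% and 7.83% of CD8 T cells, and in 52.97% and 25.95% of macrophages. Such shares of cells also depend on depth. Scaled to the class total, these genes together were at 1923 and 2533 CPM in CD8 T cells and 330 and 729 CPM in macrophages. In NK cells (505 and 442 CPM) and conventional dendritic cells (986 and 950 CPM) they were higher in the knockout library. The 5 melanoma markers together were at 7.597 to 22.8 CPM across the classes of the knockout and 69.4 to 199 CPM across those of the control library, with 0 to 2 of the 5 at no UMI in a class. Other lists moved too: the macrophage markers were at 16.1 and 79.04 CPM in CD8 T cells and 18.8 and 144 CPM in NK cells. The erythroid markers were at 109.99 and 2.98 CPM in CD8 T cells and, the other way, at 3.19 and 82.3 CPM in macrophages. The part of cell division, depth and RNA of other cell types in the difference was not tested. Among cells with no division UMI the median difference of the subunits was -0.46 in NK cells, -0.42 in CD8 T cells, -0.36 in conventional dendritic cells and -0.41 in monocytes and macrophages, against -0.39, -0.34, -0.31 and -0.52 over all cells of these classes, on the scale defined next.

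Gene by gene, the difference was a shift of nearly all subunits by a small amount. A level (CPM) is the number of UMIs of a gene for every 1000000 UMIs of its class. A difference is the log2 of the ratio, knockout over control, after 5 was added to both levels, so that a negative value means lower in the knockout library. A gene counted as measured with a mean of at least 10 CPM. In CD8 T cells 76 of 84 subunits were measured, 71 were below 0, and their median was -0.34. Over all 8259 measured genes the median was 0.15, and the median of the subunits minus it was -0.48. In NK cells the median of 77 subunits was -0.39 (all genes 0.11), with 72 below 0. For monocytes and macrophages it was -0.52 over 77 subunits (all genes 0.02), with 75 below 0. In conventional dendritic cells it was -0.31 over 76 (all genes 0.11), with 73 below 0.

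A fixed fold of 1.5 was used to count the genes at the ends. Of the 97 genes, 89 were measured in CD8 T cells, of which 21 were lower past 1.5-fold and 0 higher. Of all measured genes 7.77% were lower and 18.9% higher past that fold. In NK cells 9 of 89 were lower and 1 (Ndufaf5) higher, against 6.21% and 10.5% of all measured genes. In monocytes and macrophages 33 of 88 were lower and 1 (Ndufaf7) higher, against 14.3% and 16.6%. In conventional dendritic cells 8 of 87 were lower and 0 higher, against 5.62% and 11.5%. The counts in NK cells and dendritic cells depended on the scaling. Scaled by the median ratio of genes, 36 of the 97 were lower in CD8 T cells (13.7% of all measured genes under that scaling), 26 in NK cells (10.2%), 38 in monocytes and macrophages (15%) and 20 in conventional dendritic cells (9.5%).

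**Figure D2:**
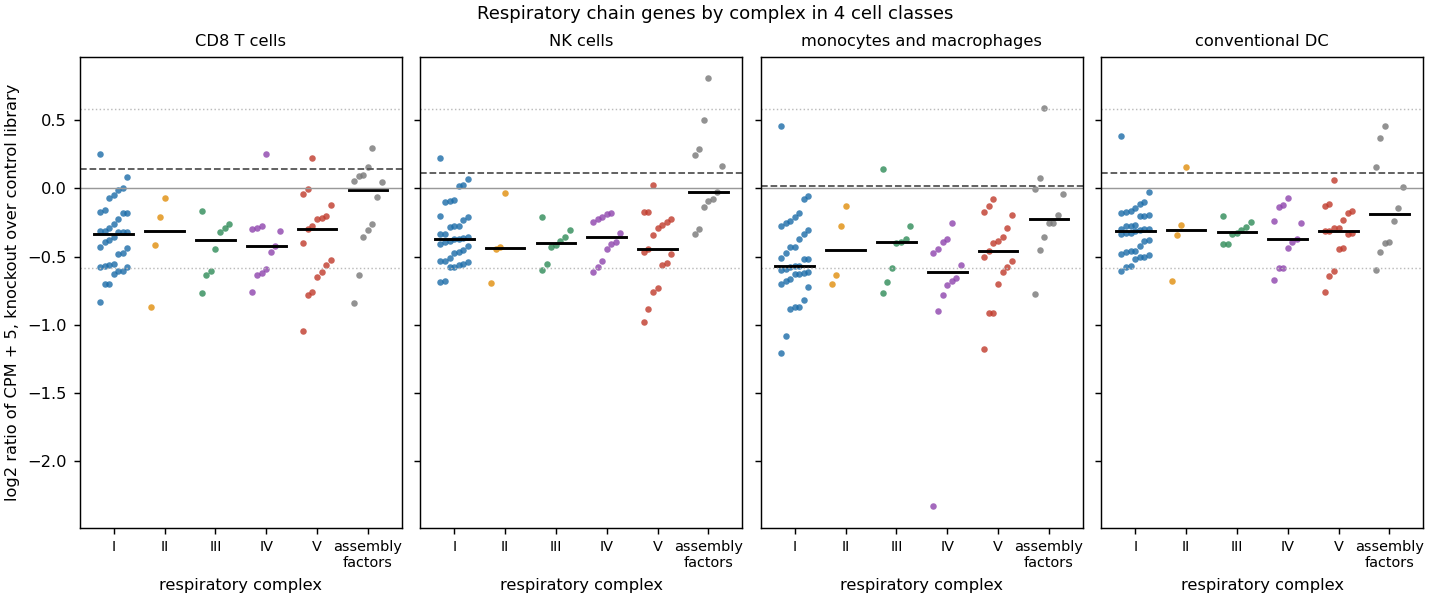
Log2 ratio (knockout over control, 5 added to each CPM) of each measured respiratory chain gene (points) by complex, with assembly factors apart, in 4 cell classes. Black bars are medians, the dashed line is the median of all measured genes and dotted lines mark 1.5-fold; the medians of all 5 complexes lie between -0.61 and -0.30, and the lowest point is Cox4i2 in monocytes and macrophages (-2.33).

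The 5 complexes differed little from one another. Their medians in CD8 T cells were -0.34 (complex I), -0.31 (II), -0.38 (III), -0.42 (IV) and -0.30 (V). In NK cells they ran from -0.44 to -0.36, and in conventional dendritic cells from -0.37 to -0.30. The widest range was in monocytes and macrophages, from -0.61 for complex IV and -0.57 for complex I to -0.40 for complex III. The summed level of complex I subunits in CD8 T cells was 4964 CPM in knockout-tumour cells and 6263 CPM in control cells. For complex V it was 5761 and 7470.1 CPM.

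Gene span, the distance from the first to the last annotated base, moved with the differences over all genes. The subunits are short genes, with a median span of 7.197 kb, against 26.7 kb for the genes measured in CD8 T cells. All genes were split by span into 4 bins of equal size. In CD8 T cells the bin of the shortest genes had a median difference of -0.27 and that of the longest 0.56. The 57 subunits in the shortest bin had a median of -0.31, close to that of the bin, and the 14 in the next bin -0.59 against 0.00. For monocytes and macrophages the shortest bin had -0.33 over all genes and -0.49 over 58 subunits. In NK cells the values were -0.22 and -0.37, and in conventional dendritic cells -0.22 and -0.31. The subunits in the shortest bin were thus lower than all genes of that bin by less than they were lower than all genes. In the next bin the subunits of monocytes and macrophages had -0.63 against -0.10 over all genes of that bin. The values there were -0.46 against 0.02 in NK cells and -0.34 against 0.01 in conventional dendritic cells. The gap was thus wider in the next bin than in the shortest in each of these classes. The part of gene span in the difference was not tested.

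Complex V, the ATP synthase, held Atp5b and Atp5d, which were both among the 5 lowest of the 97 genes in CD8 T cells, NK cells and conventional dendritic cells. Atp5b encodes the beta subunit, which carries the catalytic sites of the rotating head. Its level in CD8 T cells was 344 CPM (338 to 349.8) in cells of knockout tumours against 713 CPM (706 to 721) in control cells, which was 2.07-fold lower (2.03 to 2.12). In NK cells it was at 186 and 372 CPM and 1.996-fold lower (1.82 to 2.19) in the knockout library. In monocytes and macrophages it was at 219.8 and 418 CPM and 1.9004-fold lower (1.83 to 1.97). In conventional dendritic cells it was at 259 and 407 CPM and 1.57-fold lower (1.505 to 1.64). Its partner in the head, the alpha subunit Atp5a1, stood at 264 and 351 CPM in CD8 T cells (-0.40 on the log2 scale), against -1.04 for Atp5b. In NK cells the values were -0.26 for Atp5a1 and -0.98 for Atp5b. The RNAs of these partners were thus not lower by the same amount.

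Atp5d, the delta subunit of the central stalk, was at 241 and 418 CPM in CD8 T cells (1.73-fold lower, 1.69 to 1.78). It was at 188 and 351 CPM in NK cells and at 152 and 260.3 CPM in conventional dendritic cells, where it had the lowest ratio of all 97 genes (-0.76). Atp5o, which joins the head to the outer stalk, was at 129.8 and 218 CPM in NK cells (1.68-fold lower, 1.496 to 1.89). At the other end was Atp5k, the small membrane subunit e. It was at 302 CPM in cells of knockout tumours against 258 CPM in control cells in CD8 T cells, 1.17-fold higher (1.14 to 1.198). In NK cells and conventional dendritic cells its ratios were 0.02 and 0.06, signs that turned under a scaling by the median ratio of genes, and in monocytes and macrophages it was -0.20.

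The c subunits form the rotating ring of the synthase, and Atp5g1, Atp5g2 and Atp5g3 encode the same mature protein, with different import sequences. Their relative use differed between the libraries in several classes, among them macrophages. Atp5g1 was at 142 and 349 CPM there, Atp5g2 at 262 and 353 CPM and Atp5g3 at 177 and 231 CPM. Atp5g1 gave 24.4% (23.4 to 25.4) of the UMIs of the 3 genes in knockout-tumour cells and 37.5% (37.1 to 37.9) in control cells. In monocytes its share was 31.9% (29.4 to 34.6) and 39.9% (38.7 to 41.2), and in type 2 conventional dendritic cells 27.6% (26.2 to 29.02) and 40.3% (38.1 to 42.5). The Atp5g1 share was also smaller in the knockout library in NK cells, 22.0% (20.8 to 23.2) and 26.2% (24.1 to 28.5). Type 1 conventional dendritic cells had 32.9% and 36.5%, regulatory T cells 22.6% and 28.2%, and plasmacytoid dendritic cells 25.3% and 33.2%. In B cells it was 26.4% and 32.5%, with overlapping intervals. It was nearly level in mature dendritic cells, 28.2% and 27.8%, and CD4 T cells, 24.7% and 23.8%. In CD8 T cells it was close as well, at 27.4% (26.9 to 27.9) and 28.03% (27.7 to 28.4). There Atp5g2 had the smaller share in the knockout library, 42.1% (41.6 to 42.7) against 47.1% (46.6 to 47.5). Such shares within 1 class do not depend on the scaling to the library total. Processed copies of these genes exist in the genome, and reads shared with them could not be told apart here.

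The other genes of the head and stalks ranged from near 0 to well below it. Atp5c1, the gamma subunit that turns inside the head, had ratios of -0.76, -0.55, -0.53 and -0.44 in CD8 T cells, NK cells, monocytes and macrophages, and conventional dendritic cells. Atp5e, the epsilon subunit of the central stalk, had -0.04, -0.24, -0.17 and -0.11 in the same order. In the outer stalk, which holds the head still, Atp5f1 had -0.61, -0.56, -0.61 and -0.34, and Atp5h -0.12, -0.29, -0.29 and -0.31. Genes of the same stalk thus differed from each other. Atp5mpl, a small membrane subunit, was at 239 and 239.8 CPM in CD8 T cells and level there, and at 271 and 286 CPM in monocytes and macrophages (-0.07). All 17 complex V genes were measured in the 4 classes, and 5, 4, 5 and 3 of them were lower past 1.5-fold, beside 7.77%, 6.21%, 14.3% and 5.62% of all measured genes.

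Among complex I genes, the subunits that take up NADH did not share 1 direction. Ndufv1 holds the flavin that accepts electrons from NADH. Among CD8 T cells it was at 35.2 CPM (33.4 to 37.2) in cells of knockout tumours against 66.6 CPM (64.3 to 68.9) in control cells, 1.89-fold lower (1.77 to 2.02). Ndufs1, an iron-sulfur subunit of the same arm, was at 57.3 CPM (54.9 to 59.7) in cells of knockout tumours against 47.4 CPM (45.4 to 49.3) in control cells, 1.21-fold higher (1.14 to 1.28). In NK cells Ndufs1 was at 53.5 and 45.1 CPM, a difference within counting error, and in conventional dendritic cells at 42.7 and 31.5 CPM, 1.35-fold higher (1.18 to 1.55). Its ratio in monocytes and macrophages was -0.05. Where it was above 0 in the 4 classes it stayed so under both other scalings. Ndufv2, also of the NADH arm, had ratios of -0.48 in CD8 T cells and -0.39 in NK cells.

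Ndufs7 and Ndufs8, iron-sulfur subunits that lead electrons towards ubiquinone, were lower in all 4 classes. Ndufs7 was at 90.7 and 114 CPM in CD8 T cells (-0.32) and Ndufs8 at 83.5 and 105 CPM (-0.32). Their ratios in monocytes and macrophages were -0.60 and -0.62. The lowest complex I genes there were accessory subunits. Ndufab1, which is also the mitochondrial acyl carrier protein, was at 70.8 CPM in cells of knockout tumours against 169.996 CPM in control cells, 2.403-fold lower (2.25 to 2.56). Ndufa12 was at 71.6 CPM in cells of knockout tumours against 158 CPM in control cells, 2.201-fold lower (2.07 to 2.35). Ndufa6, another accessory subunit, stood apart at 201 CPM in cells of knockout tumours against 145 CPM in control cells, 1.39-fold higher (1.33 to 1.45). Macrophages alone had 205 and 138 CPM of Ndufa6, and monocytes 184 and 182 CPM. In NK cells Ndufa6 was at 158 and 192 CPM (-0.28).

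Complex II, which is also the succinate dehydrogenase of the citric acid cycle, has 4 subunits, all nuclear. Sdha, the flavoprotein that oxidises succinate, was nearly level between the libraries, at 82.1 and 86.4 CPM in CD8 T cells (-0.07) and 92.3 and 94.4 CPM in NK cells (-0.03). In conventional dendritic cells it was at 80.4 and 71.4 CPM, 1.13-fold higher (1.03 to 1.24), and in monocytes and macrophages its ratio was -0.13. Sdhb, the iron-sulfur subunit that takes electrons from Sdha, was at 125 and 169 CPM in CD8 T cells (-0.42) and 64.7 and 108 CPM in NK cells (-0.70). Sdhc and Sdhd anchor the enzyme in the membrane. Sdhd was at 49.9 and 95.4 CPM in CD8 T cells, 1.91-fold lower (1.81 to 2.02), and at 45.2 and 75.6 CPM in conventional dendritic cells, 1.67-fold lower (1.51 to 1.85). Sdhc was at 47.8 and 56.2 CPM in CD8 T cells (-0.21) and had a ratio of -0.63 in monocytes and macrophages. In each of the 4 classes Sdha thus had the highest ratio of the 4 genes.

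In complex III all 8 subunits were below 0 in CD8 T cells, NK cells and conventional dendritic cells. Uqcrfs1, the Rieske iron-sulfur protein, was at 75.2 and 132 CPM in CD8 T cells (1.75-fold lower, 1.68 to 1.83). The core proteins Uqcrc1 and Uqcrc2 were at 75.2 and 117 CPM and at 85.01 and 135 CPM, with ratios of -0.61 and -0.64. The exception in monocytes and macrophages was the hinge protein Uqcrh, which helps cytochrome c to dock, at 333 CPM in cells of knockout tumours against 301 CPM in control cells (1.11-fold higher, 1.07 to 1.14).

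In complex IV 11 subunits were measured in CD8 T cells, and 10 of them were below 0. Cox4i1, the common form of the subunit that binds ATP and ADP, was at 552 CPM in cells of knockout tumours against 852 CPM in control cells in CD8 T cells (1.54-fold lower, 1.52 to 1.57). Cox5a was at 309 and 528 CPM in CD8 T cells (-0.76), at 195 and 299.96 CPM in NK cells (-0.61) and at 228 and 366 CPM in conventional dendritic cells (-0.67). Cox8a, Cox7a2 and Cox6b1 had ratios of -0.63, -0.59 and -0.42 in CD8 T cells, and Cox6a1 was closer to 0 (-0.28). Ndufa4, named for complex I but a subunit of complex IV, differed between classes. Ndufa4 was at 376 CPM in cells of knockout tumours against 315 CPM in control cells in CD8 T cells (1.195-fold higher, 1.17 to 1.22). In monocytes and macrophages it was at 172 and 274 CPM (1.59-fold lower, 1.53 to 1.66). Cox7a2l, which helps to join complexes III and IV into supercomplexes, was lower in conventional dendritic cells (167 and 259 CPM, -0.61) and CD8 T cells (153 and 226 CPM, -0.55). In macrophages it was at 154 and 137 CPM (0.16) and in monocytes at 129 and 132 CPM (-0.03).

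The 12 assembly factors, which build complexes I and II but are no part of them, lay closer to 0 by median than the subunits. Their medians were -0.01 in CD8 T cells, -0.03 in NK cells, -0.22 in monocytes and macrophages and -0.19 in conventional dendritic cells, over 12, 11, 10 and 10 measured genes. Single factors differed from this. Over the 8 single classes with at least 100 cells in both libraries, Ndufaf3 and Sdhaf1 were below 0 in all 8 (medians -0.63 and -0.32). Ndufaf8 was below 0 in 7 (median -0.41), and Ndufaf5 in 0 of the 7 in which it was measured. Ndufaf5, which modifies Ndufs7 during assembly, was among the 5 highest of the 97 genes in each of the 4 classes. It was at 21.6 CPM (20.1 to 23.1) in cells of knockout tumours against 16.6 CPM (15.5 to 17.8) in control cells in CD8 T cells. In NK cells it was at 15.95 CPM (13.3 to 19.01) in cells of knockout tumours against 6.98 CPM (3.71 to 11.9) in control cells, from 13 UMIs in the control library. In conventional dendritic cells it was at 15.9 and 10.2 CPM (1.55-fold higher, 1.23 to 1.97), and in monocytes and macrophages at 12.6 and 11.7 CPM, within counting error. Sdhaf1, which helps to load iron-sulfur clusters into Sdhb, was at 15.8 CPM in cells of knockout tumours against 32.3 CPM in control cells in CD8 T cells (2.04-fold lower, 1.85 to 2.24). Sdhaf4, which helps Sdha and Sdhb to join, was at 21.8 and 13.95 CPM in NK cells and 21.5 and 28.9 CPM in CD8 T cells, and Sdhaf2, which helps to attach the flavin to Sdha, at 44.8 and 37.03 CPM in NK cells. Ndufaf2 in NK cells (37.3 and 29.5 CPM) and Ndufaf4 in conventional dendritic cells (16.9 and 14.7 CPM) differed within counting error. Ndufaf4 in CD8 T cells was at 34.5 and 30.4 CPM (1.13-fold higher, 1.05 to 1.22). Ndufaf7, a methyltransferase of complex I assembly, was at 17.2 and 9.78 CPM in monocytes and macrophages (1.76-fold higher, 1.52 to 2.04) and at 22.9 and 16.5 CPM in conventional dendritic cells (1.38-fold higher, 1.15 to 1.67).

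Across the 8 single classes with at least 100 cells in both libraries, 76 subunits were measured in all, and 58 of them were below 0 in all 8. These classes were CD8 T cells, NK cells, B cells, type 1, type 2 and mature dendritic cells, monocytes and macrophages. Lower past 1.5-fold in all 8 was 1 subunit, Atp5d, with ratios from -1.12 to -0.67. Atp5b, Cox5a, Atp5g1 and Ndufb9 were lower past 1.5-fold in 6 of the 8, with medians of -0.81, -0.76, -0.73 and -0.71. The share of all measured genes that were lower past that fold was 12.7% in B cells, 6.23%, 6.87% and 12.8% in type 1, type 2 and mature dendritic cells, 10.8% in monocytes and 15.3% in macrophages. In none of the 8 were 19 subunits lower past the fold, and 18 were above 0 in at least 1 class. The shares of all measured genes are for single classes. Counts over the 8 classes, all from the same 2 libraries, thus have no background of all genes beside them. The highest medians were those of Ndufs1 (0.26, below 0 in 2 of 8), Sdha (0.03, below 0 in 3) and Atp5k (-0.01, below 0 in 4). Ndufs1 and Sdha span 33.2 and 28.03 kb, while Atp5k spans 1.21 kb and Ndufa3, with a median of -0.08, 2.96 kb. Ndufa10, at 34.9 kb, had a median of -0.47. Ndufs4, at 100.5 kb, had a median of -0.12. Both long and short genes were among the subunits that differed least, and the part of gene span was not tested.

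**Figure D3:**
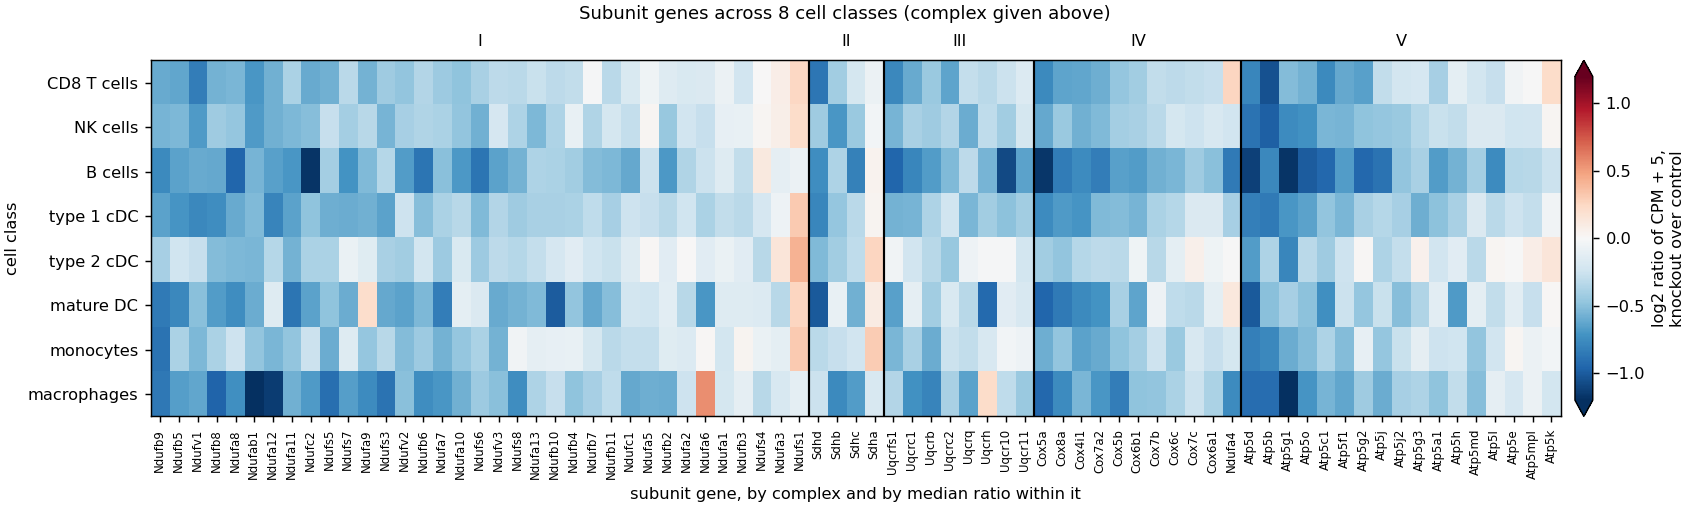
Log2 ratio (knockout over control, 5 added to each CPM) for 75 of the 76 subunits measured in all 8 classes (rows are classes, columns are genes by complex and, within it, by median); blue is lower and red higher in the knockout library. Most fields of the map are blue, and 18 of the 76 subunits are above 0 in at least 1 class, among them Ndufs1 (median 0.26), Sdha (0.03), Atp5k (-0.01) and, in macrophages, Ndufa6 (0.56) and Uqcrh (0.22).

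Type 2 conventional dendritic cells differed the least of these classes and B cells the most. In type 2 cells 65 of 77 measured subunits were below 0, with a median of -0.25, and in B cells 74 of 76, with a median of -0.62. The medians were -0.41 in type 1 and -0.47 in mature dendritic cells, -0.29 in monocytes and -0.54 in macrophages. The order of the classes was not tested.

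Cox6a2, the heart and muscle form of a small complex IV subunit, was found almost only in plasmacytoid dendritic cells, in both libraries (Cox6a2 lies on chromosome 7, 128205435 to 128206387, minus strand, GRCm38). There it was at 693 CPM (664 to 724) in cells of knockout tumours against 883 CPM (799.9 to 973) in control cells, from 168 and 34 cells. In NK cells it was at 9.83 CPM (7.76 to 12.3) in cells of knockout tumours against 11.8 CPM (7.398 to 17.9) in control cells, and in macrophages at 1.59 CPM (0.96 to 2.49) in cells of knockout tumours against 5.03 CPM (4.47 to 5.65) in control cells. The other 9 classes had at most 1.27 CPM in either library. A UMI was seen in 121 of 168 and 29 of 34 plasmacytoid dendritic cells (72.02% and 85.3%), at medians of 18211 and 14414 UMIs per cell. It was seen among CD8 T cells in 0.567% and 0.457% of cells at medians of 13516 and 23111. With each cell thinned to 5000 UMIs the shares were 67.7% and 75% in plasmacytoid dendritic cells and 0.301% and 0.119% in CD8 T cells, leaving out 7, 2, 124 and 72 shallower cells. Among NK cells a Cox6a2 UMI was seen in only 24 of 685 and 6 of 199. Of these UMIs, 76 of 77 in the knockout library and all 22 in the control library were in cells with a UMI of Eomes. Eomes, a transcription factor of conventional NK cells, had a UMI in 471 and 135 NK cells. Their median depths were 11183 and 8688 UMIs, against 8293.5 and 6522.5 in NK cells without one. Cox6a1, the sister gene of Cox6a2, was found in all 12 classes, from 117 to 235 CPM in the knockout and 136 to 286 CPM in the control library. In plasmacytoid dendritic cells Cox6a1 was at 180.01 and 205 CPM. The knockout value of Cox6a2 there was 1.27-fold lower (1.14 to 1.42), and the median of 77 measured subunits in the class was -0.41.

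**Figure D4:**
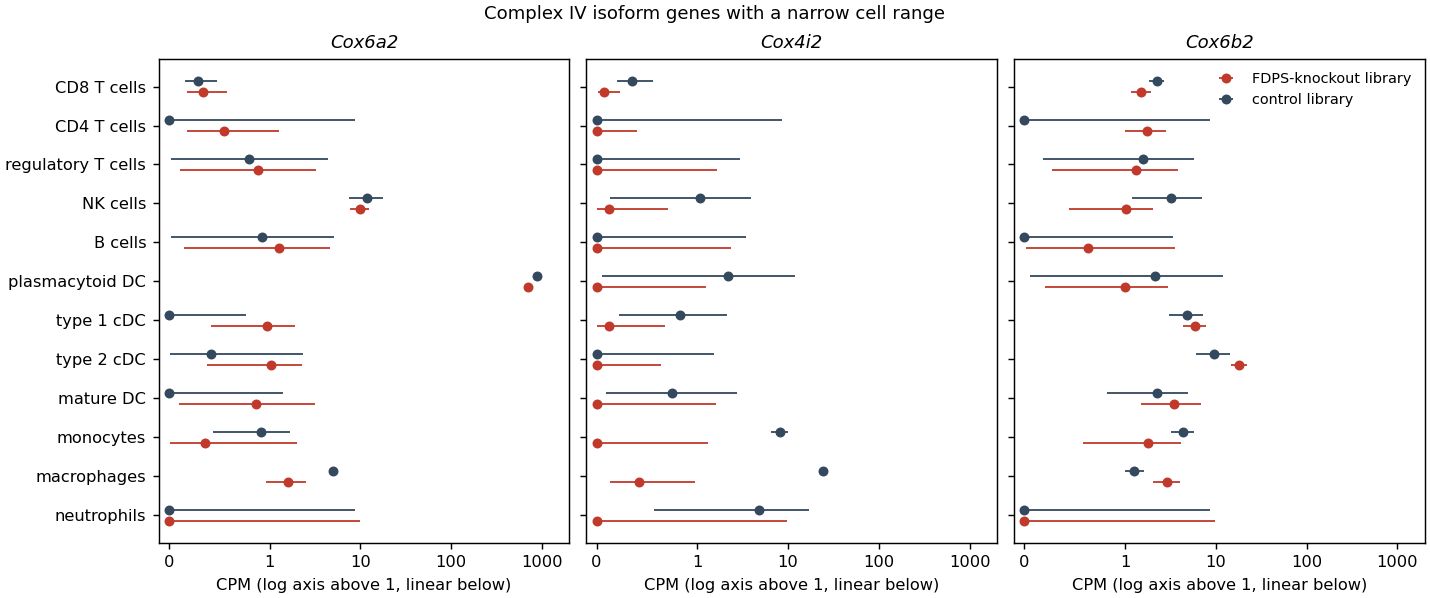
Level of 3 complex IV isoform genes (CPM, horizontal axis, logarithmic above 1 and linear below) in 12 classes; points are the 2 libraries and bars exact 95% Poisson intervals. Cox6a2 stands at 693 and 883 CPM in plasmacytoid dendritic cells of both libraries, Cox4i2 is above 5 CPM in monocytes and macrophages of the control library and in no other class (8.15 and 24.5 CPM), and Cox6b2 is highest in type 2 conventional dendritic cells.

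Cox4i2, the isoform of the Cox4 subunit that is known from lung and smooth muscle and is induced at low oxygen, had the largest difference of the 97 genes among the classes with at least 100 cells in both libraries (chromosome 2, 152754173 to 152765037, plus strand, GRCm38). In macrophages it was at 0.42 CPM (0.136 to 0.979) in cells of knockout tumours against 24.5 CPM (23.2 to 25.8) in control cells, from 5 and 1405 UMIs, which was 58.3-fold lower (24.9 to 179.9). In monocytes it had 0 UMIs in the knockout library and 8.15 CPM (6.55 to 10.03) in the control library, at least 7.57-fold lower against a floor of 3 counts over the knockout class. Outside these and the neutrophils, where 2 UMIs in the control library gave 4.73 CPM, it reached at most 2.16 CPM in any class. A UMI was seen in 4 of 859 and 588 of 2647 macrophages (0.466% and 22.2%), and in 0.142% and 0.971% of CD8 T cells. With each cell thinned to 5000 UMIs the macrophage shares were 0 of 711 (up to 0.517%) and 9.08% of 2512, and 0.238% in CD8 T cells of the control library. Its sister gene Cox4i1 was at 521 and 763 CPM in macrophages (1.46-fold lower, 1.42 to 1.502). Cox4i2 was thus lower by far more than the common isoform. The macrophages of the 2 libraries were not alike in other genes: Spp1 had a UMI in 42 of 859 and 1238 of 2647 of them, Arg1 in 132 and 1374, and Cd163 in 200 and 113. The macrophage markers together were at 4671 and 9286 CPM. A difference within the class and a difference in which cells it holds cannot be told apart here, for Cox4i2 and for the other genes.

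In control macrophages Cox4i2 was higher among cells that also had a UMI of genes known to be induced at low oxygen. These genes were picked after values had been seen. In cells with a Bnip3 UMI it was at 28.7 CPM (27.2 to 30.3), and in those without at 8.69 CPM (7.11 to 10.5). Median depths of these cells were 20356 and 15574 UMIs. Cox4i1 was at 770.1 CPM (762 to 778) and 735 CPM (719 to 749.9) in them. In knockout-tumour macrophages Cox4i1 was also higher with this marker, at 670.1 CPM (649 to 692) with and 389 CPM (373 to 404) without a Bnip3 UMI. For Hilpda the Cox4i2 values were 31.2 CPM (29.4 to 33.02) and 12.6 CPM (11.1 to 14.2), and for Vegfa 35.02 CPM (32.8 to 37.4) and 16.1 CPM (14.8 to 17.6). Cells with and without Spp1, a gene of tumour macrophages, had 24.6 CPM (22.8 to 26.5) and 24.4 CPM (22.6 to 26.2). With and without Arg1 the values were 26.9 CPM (25.1 to 28.9) and 21.8 CPM (20.1 to 23.6). With and without Cd163 they were 17.0 CPM (13.1 to 21.6) and 25.0 CPM (23.7 to 26.4). In the knockout library the 5 UMIs were all in cells with an Arg1 UMI, and 0 in cells with a Cd163 UMI. All 5 were also in cells with a Bnip3 UMI, at 0.89 CPM (0.289 to 2.08). Cox4i2 was thus also lower there among Bnip3-positive macrophages, which numbered 298 in knockout-tumour cells and 1952 in control cells. Control monocytes had 10.7 CPM (8.46 to 13.3) with and 2.84 CPM (1.36 to 5.23) without a Bnip3 UMI. Rgs5, a marker of pericytes, which express Cox4i2, had a UMI in 6 and 7 macrophages, too few to read a level from. Outside the classes, 7 control cells with an Rgs5 UMI had Cox4i2 at 271 CPM, from 35 UMIs, and 4 such cells of the knockout library had 0 UMIs. The part of pericyte RNA was not tested.

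The other isoform genes with a narrow range were low. Cox6b2, the testis form of a subunit facing the intermembrane space, was highest in type 2 conventional dendritic cells, at 18.1 CPM (14.8 to 21.9) in cells of knockout tumours against 9.61 CPM (6.09 to 14.4) in control cells. It was at 5.94 and 4.78 CPM in type 1 and 3.46 and 2.25 CPM in mature dendritic cells, while Cox6b1 in type 2 cells was at 363 and 376 CPM. Cox7a1, the muscle form of Cox7a, reached 6.799 and 11.5 CPM in macrophages and 4.67 and 9.89 CPM in monocytes and at most 4.16 CPM elsewhere, and was under 10 CPM on average in every class. Ndufa4l2, a relative of Ndufa4 known to be induced at low oxygen, reached at most 2.93 CPM. Cox8b, the muscle form of Cox8, had at most 2.66 CPM, Cox7b2 at most 0.0522 CPM, and Cox8c had no UMI in any class of either library.

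Other gene lists were described by the median over their measured genes and, for most of them, by counts past 1.5-fold. The order is CD8 T cells, NK cells, monocytes and macrophages, and conventional dendritic cells. Of all measured genes 7.77%, 6.21%, 14.3% and 5.62% were lower past that fold in this order, and 18.9%, 10.5%, 16.6% and 11.5% higher. The 13 subunits encoded in the mitochondrial genome had medians of 0.05 in CD8 T cells, -0.16 in NK cells, 0.09 in monocytes and macrophages and -0.26 in conventional dendritic cells. By this measure they lay above the nuclear subunits in each of the 4 classes. As a share of all UMIs they were nevertheless lower in the knockout library in all 4, as the nuclear subunits were. They held 2.13% of the UMIs of CD8 T cells in the knockout library, against 2.601% in the control library. In NK cells the shares were 1.91% and 2.48%, in monocytes and macrophages 2.73% and 3.02%, and in conventional dendritic cells 2.20% and 2.74%. Among single classes, monocytes (2.39% and 2.28%) and mature dendritic cells (2.31% and 2.10%) went the other way. Cells with 10% or more mitochondrial UMIs had been left out. The mitochondrial ribosome, which makes these 13 proteins, has 78 genes in the list, with medians of -0.46, -0.33, -0.61 and -0.33, close to those of the nuclear subunits. Of its measured genes 14 lower and 0 higher of 77, 12 lower and 1 higher of 76, 40 lower and 1 higher of 77 and 9 lower and 0 higher of 76 were past the fold. The 15 genes of protein import had -0.43, -0.47, -0.64 and -0.23 (6 lower and 0 higher of 15, 4 lower and 0 higher of 15, 8 lower and 0 higher of 15 and 0 lower and 0 higher of 15). The 8 genes of cytochrome c, its complex III partner Cyc1 and the carriers and channels were lower than the subunits, at -0.67, -0.64, -0.77 and -0.48 (6 lower and 0 higher of 8, 5 lower and 0 higher of 8, 6 lower and 0 higher of 8 and 1 lower and 0 higher of 8).

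Genes that feed the chain were nearer 0 by median. The counts below stand beside 7.77%, 6.21%, 14.3% and 5.62% of all measured genes lower, and 18.9%, 10.5%, 16.6% and 11.5% higher. The 17 genes of the citric acid cycle had medians of -0.25, -0.04, -0.19 and -0.12, and the 13 genes of ubiquinone synthesis -0.10, -0.10, -0.09 and 0.13. Past the fold were 4 lower and 1 higher of 16, 2 lower and 0 higher of 16, 5 lower and 0 higher of 17 and 1 lower and 1 higher of 17 measured genes of the cycle, and 1 lower and 1 higher of 10, 0 lower and 1 higher of 9, 1 lower and 2 higher of 10 and 0 lower and 1 higher of 8 of ubiquinone synthesis. Ubiquinone carries electrons to complex III, and its side chain is made from the product of FDPS. The 13 regulators of mitochondrial biogenesis, such as Nrf1, Gabpa and Tfam, had 0.28, 0.08, 0.23 and 0.20 (0 lower and 2 higher of 10, 1 lower and 1 higher of 11, 0 lower and 1 higher of 10 and 0 lower and 2 higher of 10), beside 0.15, 0.11, 0.02 and 0.11 over all genes. The assembly genes of complex IV had -0.27, -0.13, -0.28 and -0.14, and those of complex III 0.17, -0.01, 0.14 and 0.06.

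Glycolysis and the proteasome core, both outside mitochondria, had lower medians than the subunits in each of the 4 classes. The 14 genes of glycolysis, the pathway that makes ATP without oxygen, had -1.35, -1.16, -1.08 and -0.90. Of them 12, 12, 10 and 10 of 14 were lower past 1.5-fold and 0 higher, against 7.77%, 6.21%, 14.3% and 5.62% of all measured genes lower. The 14 genes of the proteasome core had -0.62, -0.51, -0.85 and -0.52, and the 86 genes of the cytosolic ribosome -0.48, -0.47, -0.39 and -0.37. The respiratory chain subunits were therefore not alone in being lower. By median, they lay in CD8 T cells above the ribosome, the proteasome and glycolysis, and in monocytes and macrophages below the ribosome. Differences between lists were not tested.

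**Figure D5:**
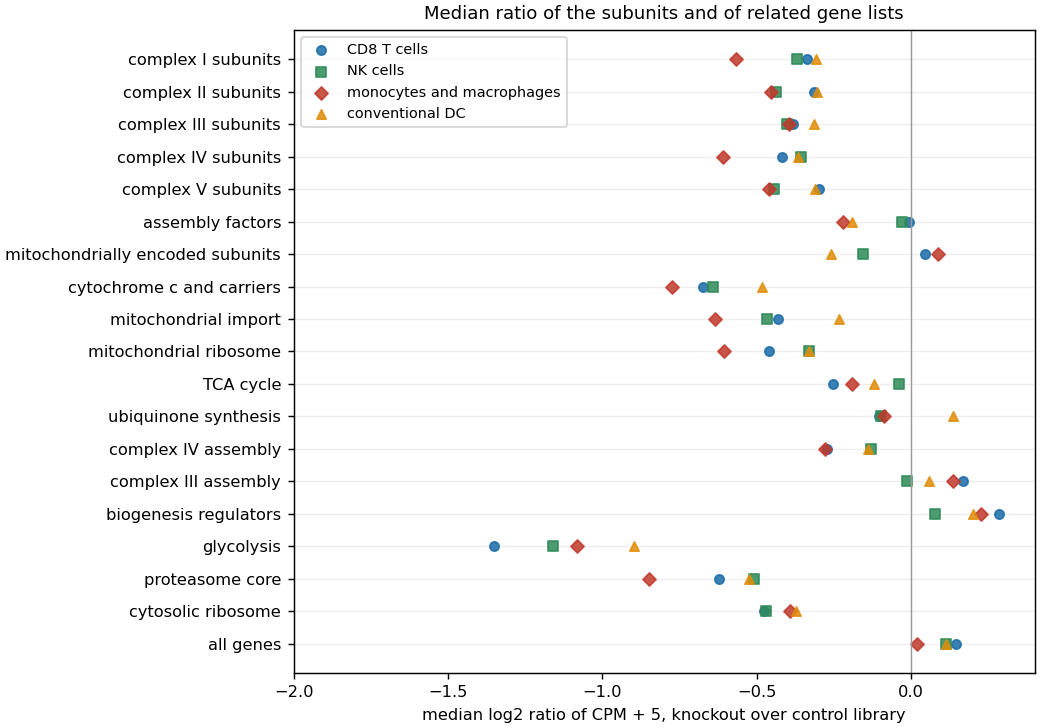
Median log2 ratio (knockout over control, 5 added to each CPM) over the measured genes of each list (rows) in 4 cell classes (symbols). The nuclear subunits of the 5 complexes lie between -0.61 and -0.30, glycolysis further left (-1.35 to -0.90), and the median of all measured genes at 0.02 to 0.15.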

How the data were processed

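Gene expression was measured by droplet single-cell RNA sequencing in 1 library per group. The deposited values are UMI counts per gene and barcode, and per the file headers the authors produced them using Cell Ranger 7.2.0. The submitters' processing notes name mm10, and which gene annotation was counted is not given in the sources used. The counting kept barcodes called as cells, and near-identical gene copies can share or lose reads. Barcodes with at least 200 genes and under 10% mitochondrial UMIs were kept. Classes were gated on marker UMIs per cell. No doublet caller was run: cells with UMIs of other lineages were refused, as were 12 and 15 cells taken by more than 1 gate, and one alternative drops the 10% of cells with most UMIs.

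Counts were summed per class and library and divided by the class total (CPM), with exact Poisson intervals. Log2 ratios used a pseudocount of 5 CPM, a gene counted as measured at a mean of 10 CPM, and 1.5-fold was the threshold. Folds have exact conditional binomial intervals and shares exact binomial ones. A count of 0 was given a floor of 3 counts, and thinning drew 5000 UMIs per cell without replacement. Classes were compared one by one with at least 100 cells in both libraries. Single genes are named as the 5 lowest and 5 highest of the 97 in each of 4 main classes, plus isoform groups, complex II and core subunits. The genes and lists were chosen with earlier results of these data known. Gene positions come from GENCODE vM21 (GRCm38) and promoter windows from RefSeq (GRCm38.p6), matched by symbol. The summing and ratio code was tested on simulated data with known folds. Python 3.11.15, numpy 2.4.6, scipy 1.17.1 and pandas 2.3.3 were used, and 11 alternatives were tried. The values of 1 gene of the set are not reported here, though it is counted in the totals.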

Additional observations from a re-analysis of the deposited data

Results flagged for a closer look

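In 4 genes the difference between the libraries ran in opposite directions in a pair of cell classes, and these differences between classes were not tested. Ndufa4, the complex IV subunit named for complex I, had a log2 ratio of 0.25 in CD8 T cells and -0.66 in monocytes and macrophages, 0.910 apart. Ndufaf7, a methyltransferase of complex I assembly, was at 0.59 in monocytes and macrophages and -0.30 in CD8 T cells, 0.891 apart. Sdhaf4, an assembly factor of complex II, was at 0.50 in NK cells and -0.36 in CD8 T cells, 0.857 apart. Ndufa6, an accessory subunit of complex I, was at 0.46 in monocytes and macrophages and -0.28 in NK cells, 0.738 apart. Genes entered this list when 1 class was above 0.25 and another below -0.25, with levels scaled by the class total. Ndufa4 in CD8 T cells, at 0.254, was only just past this limit. Scaling by the median ratio of genes lowers the ratios in CD8 T cells, so the entry of Ndufa4 depended on the scaling. With 1 library per class and group, each value rests on a single pair of libraries.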

How the results depend on the processing

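Of 140 values recomputed under 11 alternatives, 103 moved by no more than counting error or 1.5 times, 37 moved by more, and 0 changed sign. These values are the medians, the counts and the level of Cox6a2, of which only the medians can be negative and so change sign. Single genes are not among them, and between the 3 scalings 6 of the 97 in CD8 T cells, 4 in NK cells, 2 in conventional dendritic cells and 0 in monocytes and macrophages changed direction. The medians of the subunits stayed below 0 in the 4 main classes under all 11. Scaling by the median ratio of genes gave medians of -0.50 in CD8 T cells and -0.44 in conventional dendritic cells, and 36 (CD8 T cells), 26 (NK cells) and 20 (dendritic cells) genes lower past 1.5-fold, with 0 higher in monocytes and macrophages. This scaling shifts all genes of a class together, by about the median of all genes, which was 0.15 in CD8 T cells, 0.11 in NK and conventional dendritic cells and 0.02 in monocytes and macrophages. Totals without ribosomal and mitochondrial genes gave -0.47 in CD8 T cells, 32 lower there, 23 lower in NK cells, 0 higher in monocytes and macrophages and Cox6a2 at 962 CPM in plasmacytoid dendritic cells. With each cell weighted equally the CD8 median was -0.47, with 16 lower and 0 higher in NK cells, 15 lower and 1 higher in dendritic cells, 0 higher in monocytes and macrophages, and Cox6a2 at 738 CPM. Among cells with no division UMI the medians were -0.42 in CD8 T cells and -0.41 in monocytes and macrophages, with 1 gene higher in CD8 T cells, 24 lower in NK cells, 14 lower and 2 higher in dendritic cells, and Cox6a2 at 715 CPM. Without the 10% of cells with most UMIs the medians were -0.46 in CD8 T cells and -0.60 in monocytes and macrophages, with 19 lower and 0 higher in NK cells, 13 lower in dendritic cells and 0 higher in monocytes and macrophages. A pseudocount of 1 gave 2 higher genes in NK cells and 1 in dendritic cells, and a minimum of 50 CPM gave 0 higher in monocytes and macrophages and also in NK cells. A mitochondrial limit of 20% gave 5 lower in dendritic cells, and one of 5% gave Cox6a2 at 821 CPM. Asking for 1 more marker UMI moved none of the values beyond these bounds. The cause of these moves was not tested. Among the alternatives, only the counts of lower genes with median-ratio scaling have a share of all measured genes, given above. The other counts have no such background. Whether they moved more than the counts over all genes was not tested. No paired analysis was possible because each group has 1 library. No replicate could be left out either, so the spread between tumours is unknown and each interval covers counting error only. Depth limits low genes most: Ndufaf5 in NK cells rests on 13 UMIs in the control library and Cox4i2 in macrophages on 5 in the knockout library.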
